A study of Mus musculus with 6 samples.

Results

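The fibroblast growth factor (FGF) genes described here are the ligands Fgf1 to Fgf18 and Fgf20 to Fgf23, the receptors Fgfr1 to Fgfr4 and Fgfrl1, the binding proteins Fgfbp1 and Fgfbp3, the Sprouty (Spry) and Spred families, Dusp6, and the transcription factors Etv1, Etv4 and Etv5. They were taken by gene symbol from the deposited array table. The rule found 40 genes on 43 probe sets, of 21999 gene symbols on 28815 probe sets, and each gene was represented by its probe set with the highest mean over the 6 arrays. The arrays measured whole mouse lung at E14.5, on a background labelled C57BL/6 and 129X1,129S1. Mutant embryos were Shh-cre:Foxp1flox/flox:Foxp4flox/flox (3 arrays) and control embryos were ShhCre (3 arrays). Both groups thus carry the Cre driver, which acts in lung epithelium, so mesenchyme, vessels and pleura of mutant lungs should keep both forkhead genes. Loss by cell type was not measured in whole lung. The study set these groups against each other to read the consequences of losing Foxp1 and Foxp4 for secretory epithelium, and its design text does not name the FGF pathway.

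FGF signalling drives branching of the embryonic lung. Fgf10, made by mesenchyme at the distal tips, and Fgf7 act on the epithelial form of Fgfr2, while Fgf9, made by mesothelium and epithelium, acts on the mesenchyme through Fgfr1 and Fgfr2. Ligand binding, helped by heparan sulfate, starts the RAS and ERK cascade, which switches on Etv4 and Etv5 and a set of feedback inhibitors, the Sprouty and Spred proteins and the ERK phosphatase Dusp6.

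Promoter windows are shown for Fgf14, which rose, for Fgf10, the central ligand of branching, and for Etv5, an ETS effector of Fgf10. They are RefSeq sequences of build GRCm38.p6, 5′ to 3′, from 250 bases before to 50 bases after an annotated start. Capitals mark matches to the forkhead motif TGTTTAC or its reverse complement GTAAACA, searched because the deleted genes encode forkhead proteins.
Fgf14, chr14:124192497-124192796, minus strand: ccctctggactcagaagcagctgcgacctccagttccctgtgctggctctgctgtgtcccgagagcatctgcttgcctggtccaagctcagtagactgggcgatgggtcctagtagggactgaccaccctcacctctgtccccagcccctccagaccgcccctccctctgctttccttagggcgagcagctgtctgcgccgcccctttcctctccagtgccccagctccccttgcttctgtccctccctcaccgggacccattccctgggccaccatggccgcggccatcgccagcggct
Fgf10, chr13:118714449-118714748, plus strand: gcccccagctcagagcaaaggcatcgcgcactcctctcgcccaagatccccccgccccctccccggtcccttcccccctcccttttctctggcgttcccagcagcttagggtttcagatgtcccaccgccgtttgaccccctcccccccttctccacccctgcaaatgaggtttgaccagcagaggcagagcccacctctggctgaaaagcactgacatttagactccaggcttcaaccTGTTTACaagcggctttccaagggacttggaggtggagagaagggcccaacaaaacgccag
Etv5, chr16:22439521-22439820, minus strand: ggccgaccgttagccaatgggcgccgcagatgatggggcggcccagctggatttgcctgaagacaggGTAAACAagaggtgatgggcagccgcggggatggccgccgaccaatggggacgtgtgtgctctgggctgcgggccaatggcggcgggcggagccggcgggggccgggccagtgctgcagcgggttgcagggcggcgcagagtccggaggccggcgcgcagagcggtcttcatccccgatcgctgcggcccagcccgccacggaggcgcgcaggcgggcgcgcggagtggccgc
The Fgf10 window held 1 match, with 4 bases between it and the start. The window shown for Etv5, 1 of its 2, was chosen because it had more matches to the forkhead motif than the other. It held 1 match on the reverse strand, with 176 bases between the match and the start. The Fgf14 window held 0 matches, and Fgf14 has 5 transcript accessions in the reference table. The 30 FGF genes with a window had 39 windows, of which 2 held the motif, those of Fgf10 and Etv5 shown here, while 3.65% of all 32851 windows did. The AT-rich variant TATTTAT, searched on both strands, was in 3 of the 39 windows, those of Fgf5, Fgf7 and Fgfbp1, and in 5.60% of all windows. The ETS motif CCGGAAG was in 1 of the 39, that of Fgfrl1, and in 8.86% of all windows. A match is a run of letters here, and binding was not measured.

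The values are log2 expression. Array medians lay between 8.21 and 8.23, and arrays correlated pairwise with r of 0.995 to 0.998 over the probe sets. Foxp4 was at 9.80 ± 0.03 in mutants and 10.21 ± 0.05 in controls (SD, n = 3 each), lower in mutants (adjusted p by limma 0.0190), and Foxp1 had a log2 difference of -0.27 that did not pass (adjusted p by limma 0.0884). Nkx2-1, which marks lung epithelium, stood at 11.11 in mutants and 11.06 in controls. Xist was at 6.23, 6.00 and 6.04 in mutants and 6.10, 6.10 and 12.83 in controls, so control 3 carries the pattern of a female embryo and the other arrays do not, and FGF genes named below as highest or lowest on control 3 also have their estimate with that array left out. Fewer cells of a type and less RNA per cell cannot be told apart in whole lung.

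Of the 40 FGF genes 3 rose in mutant lungs, 0 fell and 37 did not pass (limma, Benjamini-Hochberg adjusted p under 0.05 over all probe sets). The 3 were Fgf1, a secreted ligand that binds all FGF receptors, Fgf14, an intracellular relative of the ligands, and Spry3, a Sprouty family member. Over all probe sets the same test called 0.774%, with 0.514% higher and 0.260% lower in mutants, and with 1 probe set per symbol it called 0.641%, with 0.341% higher. The 37 other genes had log2 differences between -0.22 and 0.12, or folds between 0.860 and 1.09, so all 37 lay within 0.25 of no change on the log2 scale, as 96.0% of all probe sets did. An unadjusted p under 0.05 was found for 8 of the 40 genes, against 11.8% of all probe sets. Beside the 3 that rose these were Fgf13, Dusp6, Fgf8, Fgfr1 and Etv5. The groups did not overlap for 13 of the 40 genes, against 18.0% of all probe sets, with 6 higher (7.83% of all) and 7 lower (10.1% of all) in mutants. The exact permutation p of each of the 13 was 0.1, the smallest that 3 against 3 arrays allow. The median log2 difference was -0.04 for the FGF genes and -0.02 for all probe sets.

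**Figure D1:**
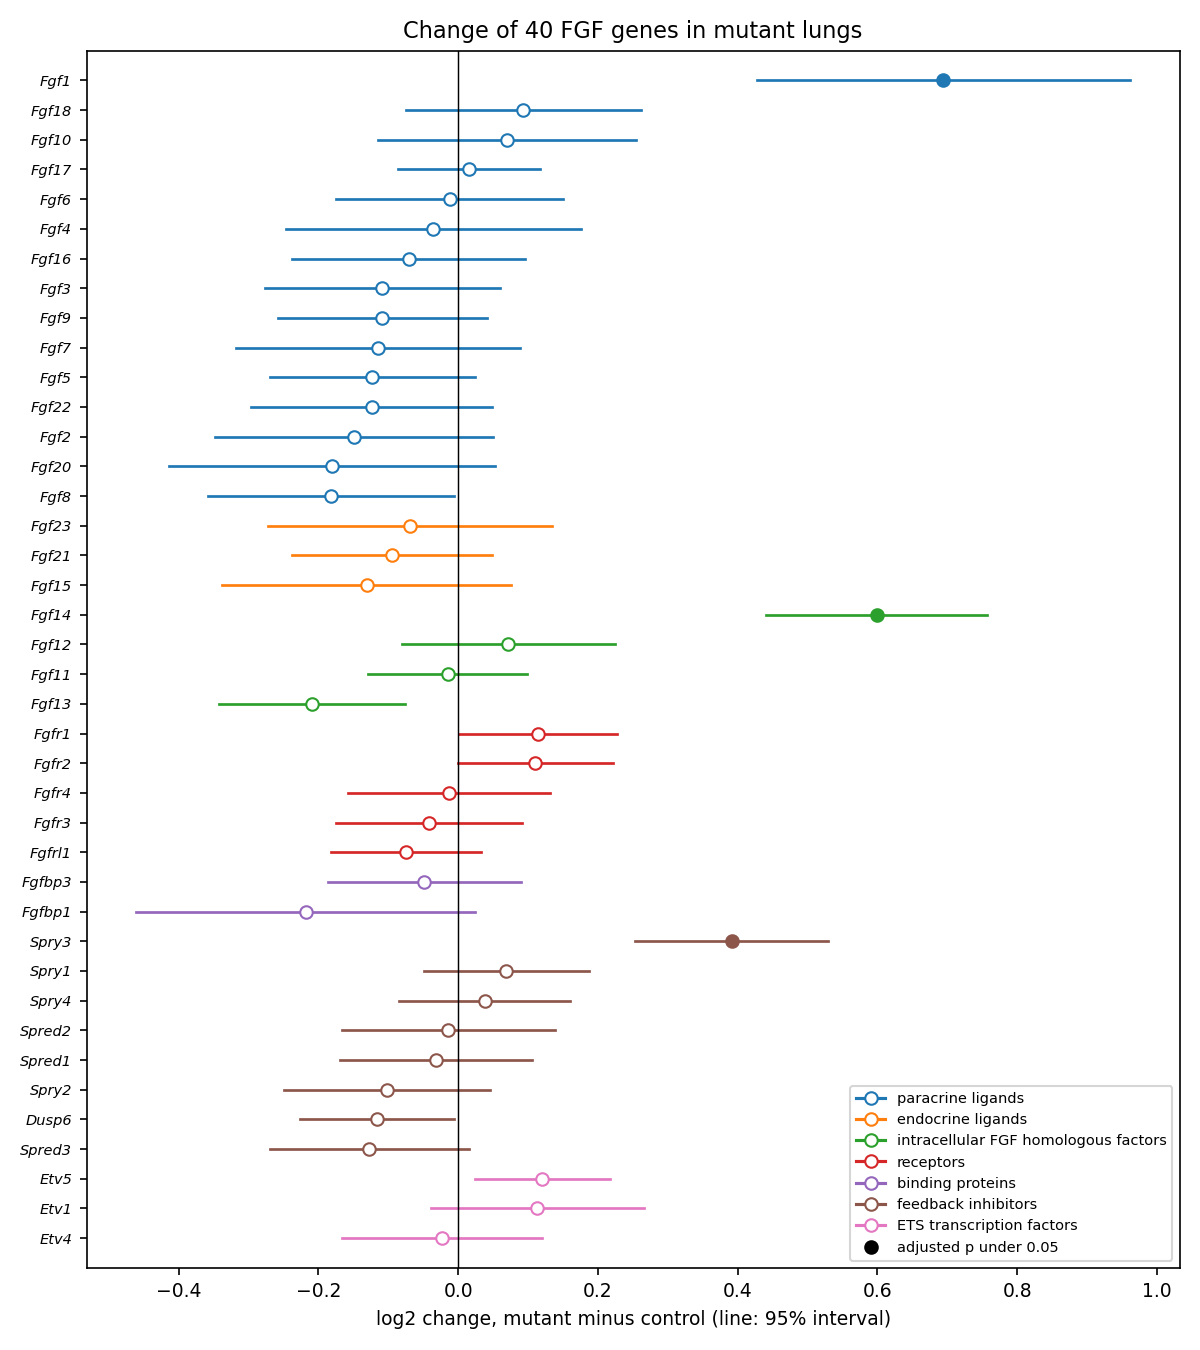
Log2 difference of each of the 40 FGF genes, mutant minus control, on the horizontal axis, with genes down the page grouped and coloured by role. Points are estimates from 3 mutant and 3 control arrays, lines are 95% intervals, and filled points passed an adjusted p of 0.05. Fgf1, Fgf14 and Spry3 stand to the right of the others, which lie between -0.22 and 0.12.

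Among the 15 paracrine ligands, which are secreted and act locally on FGF receptors, Fgf1 rose and 14 did not pass. Fgf1 measured 9.81, 9.77 and 9.86 on mutant arrays 1, 2 and 3, and 9.31, 9.22 and 8.83 on control arrays 1, 2 and 3. The groups did not overlap, the mutant arrays lay close together, and control 3 was the lowest of the 6. Fgf1 averaged 9.81 ± 0.05 in mutants and 9.12 ± 0.25 in controls (SD, n = 3 each), 1.62-fold higher in mutants (log2 difference 0.69, SE 0.11, 95% interval 1.34 to 1.95-fold, adjusted p by limma 0.0482). With control 3 left out it was 0.55 on the log2 scale (adjusted p 0.0271). Fgf1 no longer passed when any of control 2 (adjusted p 0.114), mutant 1 (0.154), mutant 2 (0.158) or mutant 3 (0.172) was left out, nor with each array centred on its median (0.0507). Fgf2, the other ligand of its subfamily, had a log2 difference of -0.15.

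**Figure D2:**
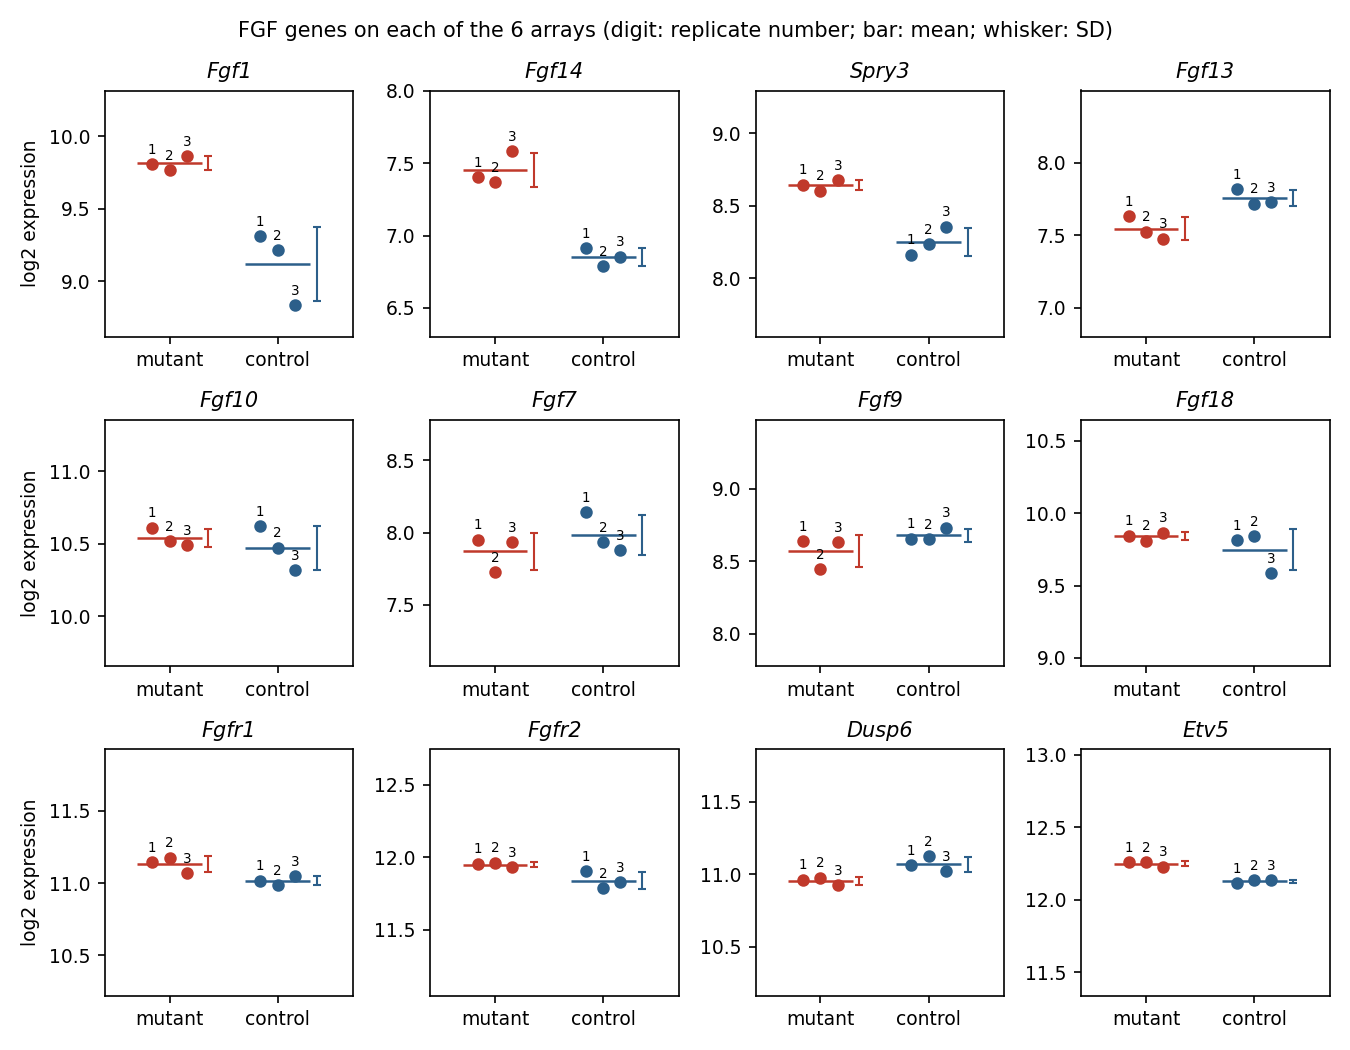
Log2 expression (vertical axis) of 12 FGF genes on each array, with mutants left of controls. Digits are replicate numbers, horizontal bars are means and whiskers SD of 3 arrays, and every panel spans the same log2 range. The groups stand clear of each other for Fgf1, Fgf14 and Spry3. They also do not overlap, by smaller differences, for Fgf13, Fgf9, Fgfr1, Fgfr2, Dusp6 and Etv5. Fgf10 runs from 10.49 to 10.61 in mutants and from 10.32 to 10.62 in controls.

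The ligands best known in lung branching did not pass. Fgf10 measured 10.61, 10.52 and 10.49 in mutants and 10.62, 10.47 and 10.32 in controls. The groups overlapped, with control 1 highest and control 3 lowest of the 6 arrays. The log2 difference was 0.07 (SE 0.08, 95% interval 0.924 to 1.19-fold, adjusted p by limma 0.755), and it turned to -0.01 with control 3 left out. Fgf7, the related epithelial mitogen, measured 7.95, 7.72 and 7.93 in mutants and 8.14, 7.94 and 7.88 in controls. Control 1 was its highest array, and the log2 difference of -0.11 had a 95% interval of 0.802 to 1.06-fold (adjusted p 0.634). Fgf3 and Fgf22 of the same subfamily had log2 differences of -0.11 and -0.12.

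Fgf9, the ligand from mesothelium and epithelium, measured 8.64, 8.44 and 8.63 in mutants and 8.66, 8.65 and 8.73 in controls. The groups did not overlap, but mutants 1 and 3 lay just under the lowest control. The log2 difference was -0.11 (95% interval 0.837 to 1.03-fold, adjusted p by limma 0.545). Fgf20, a ligand of the same subfamily, measured 7.59, 7.22 and 7.47 in mutants and 7.52, 7.55 and 7.74 in controls. Mutant 2 was its lowest array and control 3 its highest, and the groups overlapped (log2 difference -0.18, adjusted p 0.520). The difference was -0.11 with control 3 left out and -0.08 with mutant 2 left out. Fgf16, the third member of the subfamily, had a log2 difference of -0.07.

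Fgf18, a mesenchymal ligand of the embryonic lung, measured 9.85, 9.81 and 9.86 in mutants and 9.81, 9.84 and 9.58 in controls. Control 3 was low and the other 5 arrays lay together (log2 difference 0.09, adjusted p by limma 0.641), and with control 3 left out the difference was 0.01. Fgf8, a patterning ligand of the same subfamily, measured 8.64, 8.67 and 8.51 in mutants and 8.65, 8.81 and 8.90 in controls. Control 1 lay within the mutant range, and control 3 was the highest array (log2 difference -0.18, adjusted p 0.411, and -0.12 with control 3 left out). Fgf17 had a log2 difference of 0.02.

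Fgf5, best known for ending hair growth, measured 7.55, 7.50 and 7.58 in mutants and 7.61, 7.60 and 7.79 in controls. All mutants lay below all controls, and control 3 was the highest array (log2 difference -0.12, adjusted p by limma 0.491, and -0.06 with control 3 left out). Its subfamily members Fgf4 and Fgf6 had log2 differences of -0.04 and -0.01. Over the 15 paracrine ligands 11 differences lay below 0, with a median of -0.11, and 10 did with control 3 left out, with a median of -0.04. Over all probe sets 58.4% lay below 0.

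The endocrine ligands Fgf15, Fgf21 and Fgf23 act as hormones and need Klotho proteins as coreceptors. Of the 3, 0 passed by limma and 0 had an unadjusted p under 0.05. Fgf15 measured 7.52, 7.31 and 7.22 in mutants and 7.37, 7.48 and 7.60 in controls, and Fgf21 measured 6.87, 6.83 and 6.83 in mutants and 6.88, 6.88 and 7.06 in controls. Fgf23, a regulator of phosphate, measured 7.71, 7.46 and 7.59 in mutants and 7.51, 7.67 and 7.78 in controls. Control 3 was the highest array for all 3, and the groups overlapped for Fgf15 and Fgf23 but not for Fgf21 (log2 differences -0.13, -0.07 and -0.09). With control 3 left out the differences were -0.0726 for Fgf15, -0.00391 for Fgf23 and -0.0321 for Fgf21, and the median of the 3 was -0.03, against -0.09 with all arrays.

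Fgf11 to Fgf14 encode the FGF homologous factors, which stay inside the cell and bind voltage-gated sodium channels. Of these 4 genes 1 rose, Fgf14. It measured 7.40, 7.37 and 7.58 on mutant arrays 1, 2 and 3, and 6.91, 6.79 and 6.85 on control arrays 1, 2 and 3. All mutants lay above all controls, and mutant 3 was the highest array. Fgf14 averaged 7.45 ± 0.12 in mutants and 6.85 ± 0.06 in controls (SD, n = 3 each), 1.51-fold higher in mutants (log2 difference 0.60, SE 0.07, 95% interval 1.36 to 1.69-fold, adjusted p by limma 0.0171). With control 3 left out it was 0.60 on the log2 scale (adjusted p 0.0453). It no longer passed when control 2 (adjusted p 0.0779) or mutant 2 (0.0608) was left out.

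Fgf13, which is X-linked, measured 7.63, 7.53 and 7.48 in mutants and 7.82, 7.72 and 7.73 in controls. All mutants lay below all controls. The log2 difference of -0.21 (SE 0.06) did not pass (adjusted p by limma 0.220), and passed when arrays were weighted by their quality (adjusted p 0.0492). With control 3, the array of the female pattern, left out it was -0.22 (adjusted p 0.322). Fgf12 measured 7.36, 7.48 and 7.29 in mutants and 7.31, 7.22 and 7.38 in controls, and Fgf11 measured 8.24, 8.17 and 8.14 in mutants and 8.24, 8.17 and 8.20 in controls. Both overlapped between the groups, with log2 differences of 0.07 and -0.01.

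Fgf14 is best known from neurons, so markers of nerve were read beside it. Of 7 such markers 0 passed by limma and 2 had an unadjusted p under 0.05 (11.8% of all probe sets). For 6 of the 7 the difference lay below 0 (58.4% of all probe sets), with a median of -0.11 over the list. The mean level of the nerve markers was 7.64 to 7.67 in mutants and 7.66 to 7.84 in controls. Their part in the rise of Fgf14 was not tested.

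Of the 5 receptor genes 0 passed by limma and 1 had an unadjusted p under 0.05. Fgfr2, whose epithelial form receives Fgf10, measured 11.95, 11.96 and 11.93 in mutants and 11.90, 11.79 and 11.83 in controls. All mutants lay above all controls by a small margin (log2 difference 0.11, SE 0.05, adjusted p 0.425). Fgfr1, the main mesenchymal receptor, measured 11.14, 11.18 and 11.07 in mutants and 11.02, 10.98 and 11.05 in controls. Here too the groups did not overlap (log2 difference 0.11, 95% interval 1.00 to 1.17-fold, adjusted p by limma 0.416). Fgfr3 measured 10.23, 10.11 and 10.20 in mutants and 10.28, 10.24 and 10.14 in controls, and Fgfr4 measured 9.88, 9.73 and 9.75 in mutants and 9.87, 9.81 and 9.71 in controls. Both receptors overlapped between the groups, with log2 differences of -0.04 (adjusted p 0.800) and -0.01 (0.947). Fgfrl1, a receptor-like protein without the kinase domain, measured 10.47, 10.46 and 10.38 in mutants and 10.52, 10.49 and 10.52 in controls. All mutants lay below all controls (log2 difference -0.07, adjusted p by limma 0.562). With 1 value per gene, the splice forms of Fgfr2 were not told apart.

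The binding proteins Fgfbp1 and Fgfbp3 release FGF from the matrix. Fgfbp1 measured 6.83, 6.53 and 6.58 in mutants and 7.03, 6.87 and 6.69 in controls. Mutant 1 lay within the control range, and the log2 difference of -0.22 had a 95% interval of 0.727 to 1.02-fold (adjusted p by limma 0.463). Fgfbp3 measured 7.73, 7.69 and 7.82 in mutants and 7.74, 7.76 and 7.89 in controls, which overlapped (log2 difference -0.05, adjusted p 0.774).

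Among the 8 feedback inhibitors Spry3 rose and 7 did not pass. Spry3 measured 8.65, 8.60 and 8.68 on mutant arrays 1, 2 and 3, and 8.16, 8.23 and 8.36 on control arrays 1, 2 and 3. The groups did not overlap, and control 3 was the control nearest to the mutants. Spry3 averaged 8.64 ± 0.04 in mutants and 8.25 ± 0.10 in controls (SD, n = 3 each), 1.31-fold higher in mutants (log2 difference 0.39, SE 0.06, 95% interval 1.19 to 1.44-fold, adjusted p by limma 0.0330). The gene is X-linked in the reference, and with control 3 left out it was 0.44 on the log2 scale (adjusted p 0.0402). Spry3 no longer passed when any of the other 5 arrays was left out, namely control 1 (adjusted p 0.0639), control 2 (0.151), mutant 1 (0.125), mutant 2 (0.111) or mutant 3 (0.138).

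The Sprouty genes best known as FGF feedback targets had smaller differences. Spry2, whose product restrains branching, measured 9.30, 9.25 and 9.14 in mutants and 9.38, 9.38 and 9.24 in controls. The groups overlapped (log2 difference -0.10, adjusted p by limma 0.562). Spry1 measured 10.59, 10.68 and 10.58 in mutants and 10.56, 10.59 and 10.50 in controls, and Spry4 measured 9.84, 9.75 and 9.76 in mutants and 9.80, 9.75 and 9.68 in controls. Both overlapped, with log2 differences of 0.07 (adjusted p 0.622) and 0.04 (0.799).

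Dusp6, which dephosphorylates ERK and is itself induced by ERK, measured 10.96, 10.97 and 10.92 in mutants and 11.06, 11.12 and 11.02 in controls. All mutants lay below all controls. The log2 difference of -0.12 (SE 0.05) did not pass (adjusted p by limma 0.400), and passed with array weights (adjusted p 0.0445). With control 3 left out it was -0.14 (adjusted p 0.416).

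The Spred proteins inhibit the cascade at the level of RAS and RAF. Spred3 measured 8.20, 8.18 and 8.15 in mutants and 8.21, 8.29 and 8.42 in controls. Control 3 was its highest array, and the groups did not overlap (log2 difference -0.13, adjusted p by limma 0.466, and -0.07 with control 3 left out). Spred1 had a log2 difference of -0.03. Spred2 had one of -0.01 at its brighter probe set and one of -0.16 at a second, dimmer set, where all mutants lay below all controls (adjusted p 0.373).

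The ETS transcription factors Etv4 and Etv5 are a common readout of FGF10 signalling in distal epithelium. Etv5 measured 12.26, 12.26 and 12.23 in mutants and 12.11, 12.13 and 12.13 in controls. All mutants lay above all controls, with little spread within either group, but the log2 difference of 0.12 (SE 0.04, 95% interval 1.02 to 1.16-fold) did not pass (adjusted p by limma 0.321). A second Etv5 probe set measured 12.01, 12.03 and 11.92 in mutants and 11.89, 11.86 and 11.94 in controls, and there the groups overlapped (log2 difference 0.09, adjusted p 0.534). Probe set numbers run along chromosomes, and the brighter Etv5 set lay among genes of chromosome 10 (14 of the 14 named sets within 10 places). The second lay among genes of chromosome 16 (15 of 17), where Etv5 is. Whether the brighter set reads Etv5 itself was not tested.

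Etv1 showed the same arrangement. Its brighter probe set lay among genes of chromosome 13 (12 of 13 named sets) and measured 11.19, 11.25 and 11.13 in mutants and 11.14, 11.14 and 10.95 in controls. The set among genes of its own chromosome 12 (15 of 15) measured 10.73, 10.79 and 10.65 in mutants and 11.05, 10.87 and 10.50 in controls. Both overlapped between the groups, with log2 differences of 0.11 (adjusted p by limma 0.537) at the brighter set and -0.08 (0.822) at the other. Etv4 measured 8.35, 8.39 and 8.41 in mutants and 8.29, 8.49 and 8.44 in controls, which overlapped (log2 difference -0.02, 95% interval 0.891 to 1.09-fold, adjusted p 0.902).

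**Figure D3:**
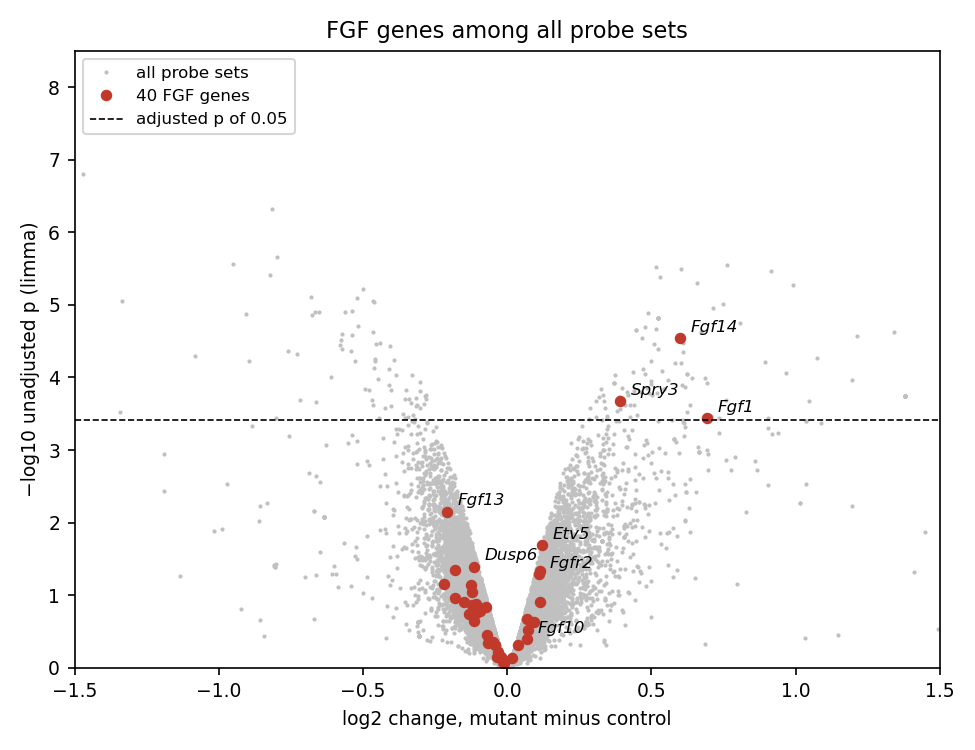
Log2 difference, mutant minus control (horizontal axis), against −log10 of the unadjusted limma p (vertical axis) for 28802 of 28815 probe sets in grey and the 40 FGF genes in red. The dashed line marks an adjusted p of 0.05. Fgf1, Fgf14 and Spry3 lie above the line and the other 37 FGF genes lie below it.

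The authors' deposited table, whose test the sources used here do not name, lists a q of 0.665% for Fgf14 and of 1.09% for both Fgf1 and Spry3. In the authors' deposited table these are the 3 FGF genes with a q under 5%, against 1.72% of all probe sets, and the next is the brighter Etv5 set, with a q of 6.80%. The Etv5 set among genes of its own chromosome has a q of 59.3% in the authors' deposited table.

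Control 3 stood apart from the other arrays for many ligand genes. It was the highest of the 6 arrays for 16 of the 40 FGF genes and for 13 of the 22 Fgf genes, against 28.0% of all probe sets. Among the 18 FGF genes whose mean level was under that of the median probe set it was highest for 11, or 61.1%, where 41.3% of all such probe sets showed this. Among the 22 brighter FGF genes it was highest for 5, or 22.7%, and lowest for 8, or 36.4%, Fgf1, Fgf10 and Fgf18 among these 8. Of all probe sets at or over the median level it was highest for 14.8% and lowest for 29.3%. For the 18 dimmer genes 15 differences lay below 0, with a median of -0.08, and 13 did with control 3 left out, with a median of -0.03. Of all probe sets under the median level 66.3% lay below 0. Over all 40 genes 27 lay below 0, or 67.5%, and 26 did with control 3 left out. Fgf14 is the 1 gene that rose among the dimmer 18.

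**Figure D4:**
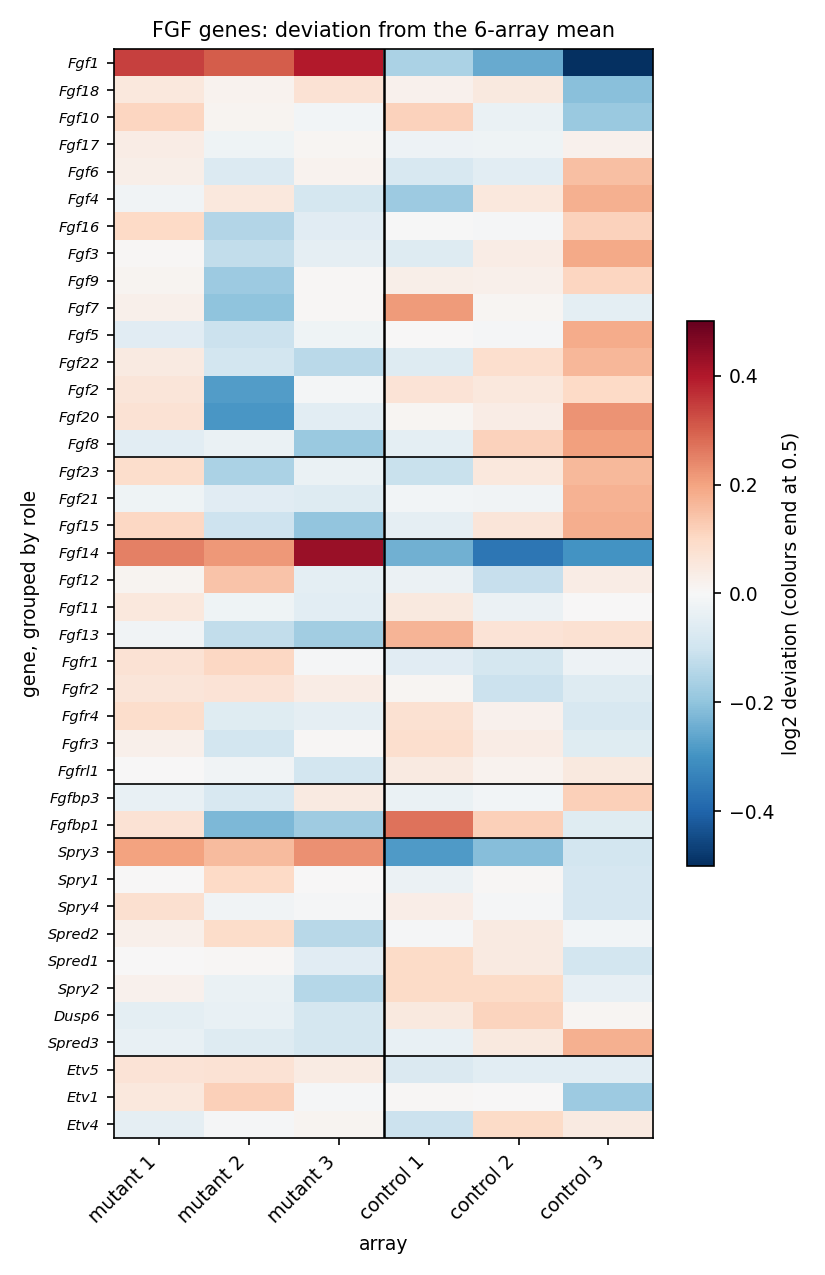
Deviation of each FGF gene from its own mean over the 6 arrays (colour, log2 units, ending at 0.5), with arrays across, mutants left of controls, and genes down the page by role. Fgf1, Fgf14 and Spry3 are red on all 3 mutant arrays, and control 3 is the highest array for 16 of the 40 genes.

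By position, Fgf6 and Fgf23 are the 2 FGF genes on chromosome 6, which carries Foxp1, and 0 are on chromosome 17, which carries Foxp4. The 2 nearest measured protein-coding genes on each side of Fgf1, Fgf14 and Spry3, where the reference has them, were 9 genes, chosen by position alone. Of the 9, 0 passed by limma and 3 had an unadjusted p under 0.05, namely Nalcn, Nudt11 and Vamp7. Over all probe sets 0.774% passed and 11.8% had an unadjusted p under 0.05. Fgf1 lies within the span of Arhgap26, which had a log2 difference of 0.06, and its neighbour Spry4 is the feedback gene given above. Next to Fgf14, Itgbl1 had a log2 difference of -0.06, and Nalcn, a sodium leak channel gene beyond it, had one of 0.22 (adjusted p 0.152). Near Spry3, Nudt11 had a log2 difference of 0.28 (adjusted p by limma 0.0743) and Vamp7 one of -0.16 (0.229).

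Other genes of the pathway were taken from lists of coreceptors, the ERK cascade, its inhibitors, its targets and the distal epithelium, 104 genes in all, of which 103 were measured. Of the 103, 0 rose, 1 fell and 13 had an unadjusted p under 0.05, with a median log2 difference of -0.02. Over all probe sets 0.774% passed and 11.8% had an unadjusted p under 0.05, the shares against which these counts and those of the single lists stand. The gene that fell was Lamp3, a membrane protein of lamellar bodies, at 6.94 ± 0.13 in mutants and 8.03 ± 0.28 in controls (SD, n = 3 each) (log2 difference -1.08, adjusted p by limma 0.0232). Lamp3 no longer passed when control 2 (adjusted p 0.0797), mutant 1 (0.0706) or mutant 2 (0.0876) was left out. It belongs to a list of 20 genes tied to FGF10 and the distal epithelium. The list is mixed, as Tbx4 and Tbx5, both below 0, are also counted among the mesenchyme markers. Of the 20 genes, 5 had an unadjusted p under 0.05 by limma and 7 differences lay below 0, with a median of 0.04. Beside Lamp3 and Cpm, the 5 were Sftpc at 0.38 (adjusted p by limma 0.212), Foxa1 at 0.15 (0.289) and Mycn at -0.15 (0.365). In the same list Cpm, a carboxypeptidase, was at 10.26 ± 0.05 in mutants and 9.87 ± 0.11 in controls (SD, n = 3 each), a log2 difference of 0.39 that did not pass (adjusted p 0.0505) but did with a trended robust prior (0.0169).

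Of 21 genes of heparan sulfate synthesis and coreceptors 0 passed by limma, 4 had an unadjusted p under 0.05 and 16 differences lay below 0. The syndecan Sdc2, a heparan sulfate proteoglycan, was at 11.01 ± 0.09 in mutants and 11.33 ± 0.07 in controls (SD, n = 3 each) (log2 difference -0.32, adjusted p 0.0921), and Flrt2, which binds FGF receptors, had a log2 difference of -0.20 (0.140). Of 26 adaptors and members of the RAS and ERK cascade 0 passed and 2 had an unadjusted p under 0.05. These were the adaptors Grb2, at -0.13 (adjusted p by limma 0.307), and Gab2, at -0.17 (0.359).

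Of 16 other inhibitors of the cascade 0 passed by limma and 0 had an unadjusted p under 0.05, with the phosphatases Dusp7 at a log2 difference of -0.10 (adjusted p 0.445) and Dusp9 at 0.09 (0.606). Of 20 immediate early genes and ERK targets 0 passed, 2 had an unadjusted p under 0.05 and 17 differences lay below 0, with a median of -0.05. The 2 were the ETS factor Elk3, at -0.11 (adjusted p by limma 0.381), and the cyclin Ccnd1, at -0.11 (0.424). Control 3 was the highest array for 8 of these 20 genes.

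The cells that make or receive FGF in lung were read through their markers. Over all probe sets 0.774% passed by limma, 11.8% had an unadjusted p under 0.05 and 58.4% of differences lay below 0. Of 11 epithelial markers 1 fell, Krt19, which mesothelium also expresses (log2 difference -0.42, adjusted p by limma 0.0382), and the median of the list was 0.05. Of 9 markers of mesenchyme, which makes Fgf7 and Fgf10, 0 passed, 2 had an unadjusted p under 0.05 and all 9 differences lay below 0. The 2 were the collagens Col1a1, at -0.28, and Col3a1, at -0.18, while the median was -0.04 and Pdgfrb was at -0.0007. The mean level of these markers was 11.59 to 11.69 in mutants and 11.71 to 11.72 in controls. Of 8 markers of mesothelium, which makes Fgf9, 1 fell, again Krt19, and 3 had an unadjusted p under 0.05 by limma. For 7 of the 8 the difference lay below 0, with a median of -0.17 over the list. Beside Krt19, the 3 were Gpm6a at -0.26 (adjusted p by limma 0.172) and Aldh1a2 at -0.34 (0.215), while Upk1b was at 0.08. The mean level of the mesothelium markers was 9.22 to 9.40 in mutants and 9.41 to 9.50 in controls. The lowest marker of the 3 lists was at 7.05, and their part in the differences of Fgf7, Fgf9 and Fgf10 was not tested.

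Tissues that can be dissected along with lung were read in the same way. Of 9 markers of skeletal muscle and oesophagus, 6 of cartilage and 6 of thymus 0 passed by limma, while 1, 4 and 1 had an unadjusted p under 0.05 in that order. Over all probe sets 0.774% passed and 11.8% had an unadjusted p under 0.05. The 4 of cartilage were Matn3 at -0.24, Matn1 at -0.19, Col9a1 at -0.18 and Acan at -0.15, each with all mutants below all controls. Of the same list Col2a1 was at -0.04 and Sox5 at 0.09. The mean level of the cartilage markers was 7.71 to 7.78 in mutants and 7.81 to 7.94 in controls, and that of the thymus markers was 6.81 to 6.88 in mutants and 6.85 to 7.05 in controls. The mean level of the muscle markers was 7.64 to 7.66 in mutants and 7.65 to 7.77 in controls. Control 3 was the highest array for 6 of the muscle, 5 of the cartilage and 6 of the thymus markers, and the median difference of each list lay below 0. The part of these tissues in the differences of the FGF genes was not tested. Of 6 smooth muscle, 7 endothelial and 6 erythroid markers 0 passed by limma, and the unadjusted p was under 0.05 for 1, 0 and 1 of them. Of 6 myeloid and mast cell markers 1 rose, the mast cell protease Cpa3 (log2 difference 1.19, adjusted p by limma 0.0301). The mean level of that list was 8.41 to 8.52 in mutants and 8.11 to 8.34 in controls, while its median log2 difference was 0.05. The others were Cd68 at 0.22, Ms4a2 at 0.05, Csf1r at 0.04, Ptprc at -0.06 and Kit at -0.09. The part of myeloid and mast cells in the rise of the 3 FGF genes was not tested.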

How the data were processed

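Whole-lung RNA of 3 mutant and 3 control embryos was measured on arrays. The authors deposited log2 values for each probe set, made with RMA per the submitters' processing notes. The sources used here name neither the array type nor the build. The same 6 values stood in both deposited tables for all 28815 probe sets. Per the file headers, the authors' table also gives a signed fold, a difference score, a q-value written in percent and a p-value of their own comparison. Arrays were grouped by their titles.

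Each probe set was fitted as mutant minus control, 2-sided, by the functions lmFit and eBayes of limma 3.58.1 (R 4.3.3), without covariates and without a filter on low values, and p was adjusted over the whole table by Benjamini-Hochberg. Single genes also had an exact permutation test. Genes given with all values passed, had one of the 4 smallest p in their role (2 in the other lists), or are well known in embryonic lung; others have their log2 difference, and Spred2, Etv1 and Etv5 also have their second probe set. The members and lists were chosen with earlier results of these data known. All 40 symbols matched RefSeq by accession. Alternatives were 15 other settings. On data simulated for this comparison with 28815 probe sets, 69 of 100 differences of 0.5 and 97 of 100 of 1 on the log2 scale were recovered, with 15 false calls. Smaller differences, such as those of Spry3 and of the FGF genes that did not pass, were not simulated. No detection calls were used, and the number of arrays limits the precision. Figures were drawn with matplotlib 3.10.9.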

Additional observations from a re-analysis of the deposited data

How the results depend on the processing

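The count of 3 FGF genes that rose stayed at 3, with the same genes, under a trended robust prior, a filter on dim probe sets (which tested 36 of the 40), repeated quantile normalization, the mean of all probe sets of a symbol, a threshold of 0.1 and the authors' deposited comparison. It was 2 with median centring, where Fgf1 left, and 5 with array weights, where Dusp6 and Fgf13 joined. The filter on dim probe sets cut at a mean over all arrays of 6.93. Fgf14 had a mean of 7.15, but its controls, at 6.91, 6.79 and 6.85, all lay under that cut. Fgf14 was thus kept through its higher mutant values, so the filter is no separate check of its rise. Leaving out 1 array gave 0 to 3 genes: 0 without control 2 or mutant 2 (limma, 4 and 4 at an unadjusted p under 0.05), 1 (Fgf14) without mutant 1 or mutant 3, 2 without control 1 and 3 without control 3. Arrays with the same replicate number did not deviate together (correlations of -0.19, 0.04 and -0.19), so the numbers were not taken as pairs. Across unlike numbers the highest correlations were 0.21 (mutant 3 with control 1) and 0.20 (mutant 1 with control 3). A pairing across unlike numbers was not tested. With the replicate number as a block 0 FGF genes and 0 other pathway genes passed (limma, 5 and 10 at an unadjusted p under 0.05).

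The 1 other pathway gene that passed became 8 with array weights, 4 in the authors' deposited comparison, 3 with the trended robust prior or a threshold of 0.1, 2 with the filter, quantile normalization or mean of probe sets, and 0 to 2 without 1 array. The median log2 difference of the FGF genes stayed between -0.06 and -0.02. Of 374 recomputed values of 25 named genes, 352 kept direction and side of the threshold, 15 no longer passed, 2 newly passed and 5 changed sign. The 15 were all of Fgf1, Fgf14 and Spry3, the 3 named genes that passed in the main fit. The other named genes had no pass to lose, and some settings, such as the threshold of 0.1, leave the log2 difference as it was. The 352 is therefore no measure of how stable the 3 calls are. The 5 changes of sign all came with 1 array left out. Over those settings Fgf10 ran between -0.00570 and 0.145, Etv4 between -0.0826 and 0.0193, and Fgfr4 between -0.0591 and 0.0230. The cause of these changes was not tested.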
